A study of Mus musculus with 4 samples.

Results

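The data described here are liver RNA-seq profiles of Kunming mice, and the comparison is between the library labelled CLA+GW6471 and the library labelled CLA. CLA, conjugated linoleic acid, is a group of linoleic acid isomers given here as a dietary supplement, and GW6471 is an antagonist of the nuclear receptor PPARα. The comparison addresses what the antagonist changed on the CLA diet. Per the labels, CLA mice ate chow with 1.5% w/w CLA for 28 days, and CLA+GW6471 mice ate that diet and were injected intraperitoneally with 20 mg per kg of GW6471. The 2 other libraries came from mice on chow with 1.5% w/w linoleic acid, without the antagonist (Vehicle) or with daily GW6471 at 20 mg per kg (GW6471). Every diet therefore carried a fatty acid supplement, and no library came from unsupplemented chow. Each group had 6 mice per the labels, but each condition has 1 library, and whether a library pooled animals or came from 1 animal is not stated in the sources used here. The study's methods describe wild-type male animals bought at 5 weeks of age. They describe the CLA and control diets only, so that the GW6471 conditions rest on the labels.

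Of the 15500 genes in the table, all 10355 with a mean of at least 1 FPKM over the 4 libraries were used. FPKM is a level already scaled for transcript length and sequencing depth. Differences are log2 ratios of FPKM + 0.1, and the added 0.1 pulls the ratios of weakly expressed genes toward 0. No condition was replicated, so that neither a replicate error nor a test can be given. A gene is called higher or lower here when the ratio was at least 1.5-fold, a description of these libraries and not of the treatments at large. The 95% intervals given in brackets are exact Clopper-Pearson intervals on estimated reads, cover counting error only, and do not include the differences between animals.

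PPARα is a ligand-activated transcription factor. With its partner RXR it binds direct repeats of a short hexamer and drives genes of fatty acid uptake, β-oxidation and ketone synthesis, most strongly in the fasted liver, where Pdk4, Cpt1a, Angptl4 and Plin2 are among its classical targets. Fatty acids, including CLA isomers, are known ligands. GW6471 stabilizes the binding of corepressors to the receptor. The hepatic clock is a transcriptional loop in which CLOCK and BMAL1 (the product of Arntl) activate Per, Cry and Nr1d1, and the products of these genes feed back; Nr1d1 encodes REV-ERBα, a repressor of Arntl.

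The 4 libraries were of similar depth, with estimates of 18770000 reads for Vehicle, 18780000 for CLA, 19090000 for GW6471 and 19260000 for CLA+GW6471. The labelled tissue was checked against hepatocyte markers before any comparison. Alb, which encodes serum albumin, had 680 FPKM with Vehicle, 1322 with CLA, 1067 with GW6471 alone and 620 with CLA+GW6471. However, 10 of the 20 listed hepatocyte markers were below the 1 FPKM filter. Ttr was at 0.00 to 0.04 FPKM, Cyp2e1 at 0.04 to 0.10 and Fga at 0.02 to 0.11, all of them abundant transcripts of adult liver. The 5 listed endothelial markers summed to at most 0.96 FPKM in any library. The highest gene of the table was Sprr1a, a cornified envelope protein of squamous epithelia, with 19046 FPKM with Vehicle, 15810 with CLA, 18795 with GW6471 alone and 26116 with CLA+GW6471. Alb, Trf and Fgb were thus present and several defining markers of adult hepatocytes near 0 in all 4 libraries, and the label "liver" is used below as the submitters gave it. The part of tissue or cell composition in any difference was not tested. In such bulk RNA, fewer cells of a type and less RNA per cell cannot be told apart.

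Across all genes, the ratio of CLA+GW6471 to CLA was centred near 0, with a median log2 ratio of 0.009, quartiles of -0.25 and 0.26, and 5th and 95th percentiles of -0.78 and 0.65. In the CLA+GW6471 library, 708 genes were at least 1.5-fold higher (6.84% of genes) and 949 at least 1.5-fold lower (9.16%). At least 2-fold, 131 genes were higher (1.27%) and 276 lower (2.67%), which became 73 and 177 with a pseudocount of 1 in place of 0.1. At least 4-fold, 7 were higher and 26 lower. Of the 1557 genes past 1.5-fold with a known transcript length, 1543 had an interval that left out equal levels. Large ratios were also found at high levels: among 752 genes with a mean of at least 100 FPKM, 13 were at least 2-fold higher and 11 at least 2-fold lower.

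**Figure D1:**
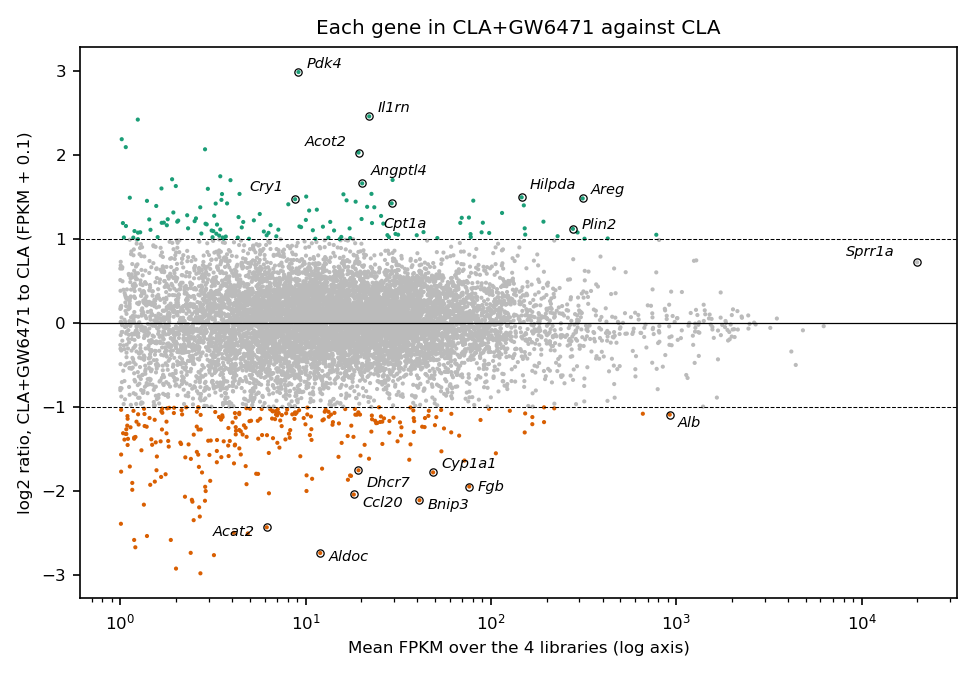
Log2 ratio of FPKM + 0.1 in CLA+GW6471 to that in CLA (vertical axis) against the mean FPKM over the 4 libraries (horizontal log axis), 1 point per gene, 1 library per condition. The cloud is centred on 0.009, with 276 genes at least 2-fold lower and 131 at least 2-fold higher.

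The 276 genes at least 2-fold lower had median levels of 3.98 FPKM with Vehicle, 8.51 with CLA, 5.64 with GW6471 alone and 3.25 with CLA+GW6471. The 131 genes at least 2-fold higher had medians of 7.59, 3.76, 6.20 and 8.81 FPKM in the same order. The order of CLA and CLA+GW6471 in both sets is fixed by the choice of the genes, and the medians of Vehicle and GW6471 lay between them. The comparison of GW6471 with Vehicle shares no library with them: there 3.29% of all genes were at least 1.5-fold higher and 2.10% at least 1.5-fold lower. Of the 276 lower genes, 133 were at least 1.5-fold higher with GW6471 on the linoleic acid diet and 4 were lower. Of the 131 higher genes, 45 were lower and 13 higher there. The antagonist was thus accompanied by opposite differences on the 2 diets more often than by like ones. Whether this comes from the diets or from the single animals or pools behind each library cannot be told apart.

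**Figure D2:**
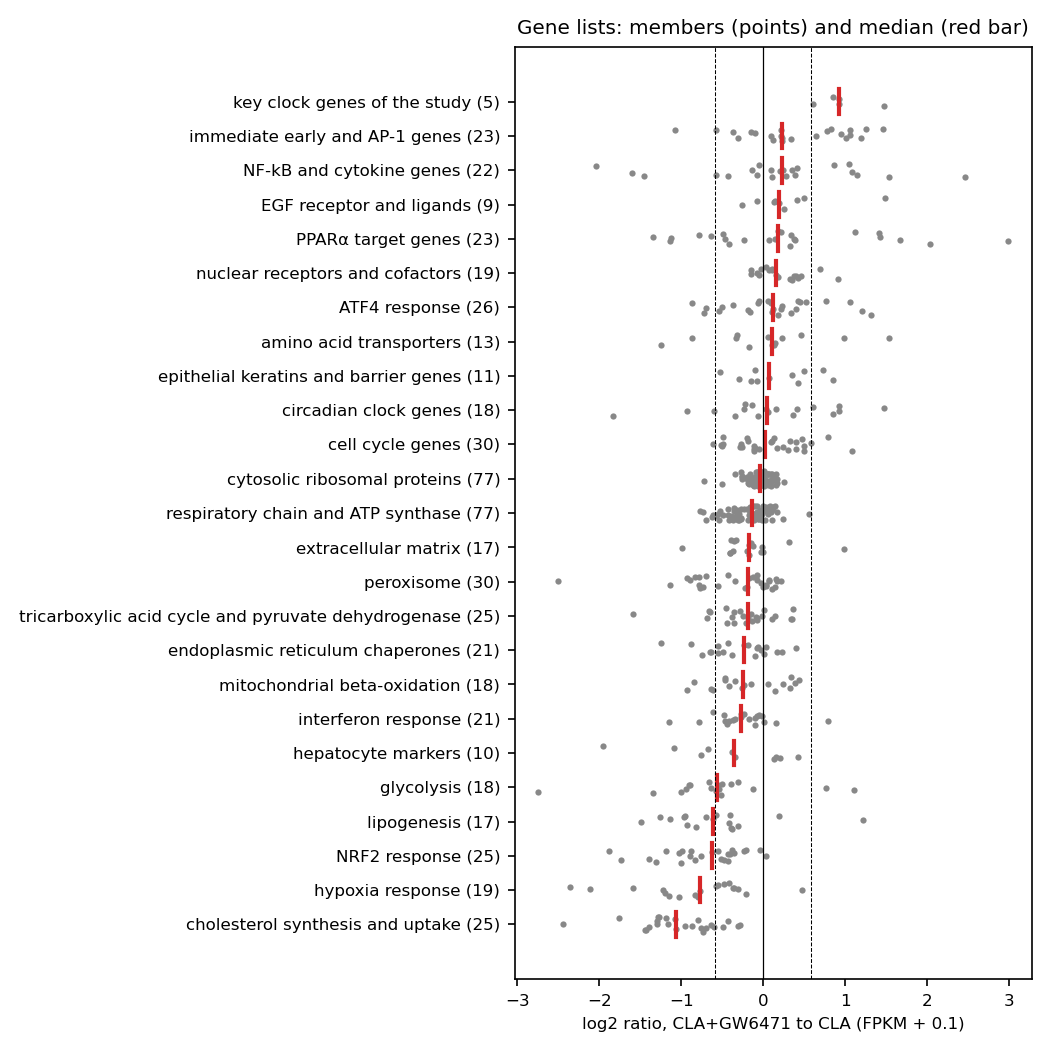
Log2 ratio of FPKM + 0.1 in CLA+GW6471 to that in CLA (horizontal axis) for the members (points) and median (red bar) of gene lists, 1 library per condition. The aryl hydrocarbon receptor and gluconeogenesis lists and those with few tested genes are not drawn. The cholesterol list has a median of -1.06.

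A small group of lipid genes was higher with GW6471 on both diets. Pdk4, the kinase that shuts down pyruvate dehydrogenase during fasting, was at 1.17 FPKM with Vehicle, 1.87 with CLA, 17.99 with GW6471 alone and 15.56 with CLA+GW6471. Both libraries with the antagonist were high and both without it were low, and the log2 ratio to CLA was 2.99 [2.79 to 3.34], 7.95-fold. In the mm9 annotation Pdk4 lies at chr6:5433351-5446309 on the minus strand. Cpt1a, the rate-limiting enzyme of fatty acid entry into mitochondria, was at 11.34, 15.98, 46.04 and 43.13 FPKM in the same order. Its log2 ratio to CLA was 1.43 [1.34 to 1.53], and Cpt1a lies at chr19:3323301-3385732 on the plus strand. Angptl4, a secreted inhibitor of lipoprotein lipase, was at 11.47, 10.15, 26.76 and 32.39 FPKM, a log2 ratio to CLA of 1.66 [1.54 to 1.81].

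Plin2 and Hilpda were also higher in both libraries with the antagonist than in either without it, whereas the droplet gene Cidec, at 5.19, 1.69, 2.32 and 4.85 FPKM, was not. Plin2, which coats the droplet surface, was at 212 FPKM with Vehicle, 182 with CLA, 318 with GW6471 alone and 396 with CLA+GW6471, a log2 ratio to CLA of 1.12. Hilpda, a droplet protein that inhibits adipose triglyceride lipase, was at 90.2, 80.5, 188 and 227 FPKM, a log2 ratio of 1.50. Acot1 and Acot2 are neighbouring thioesterase genes with close sequences, so that their reads may have been split between them. Acot1 was at 2.34, 4.01, 15.04 and 10.86 FPKM and Acot2 at 15.44, 7.41, 23.75 and 30.60 FPKM. Both were higher in each library with the antagonist than in either library without it.

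Chosen by these values and given as a description, 18 genes were at least 1.5-fold higher with GW6471 on both diets and 9 were at least 1.5-fold lower. The 18 were 2.54% of the 708 genes higher on the CLA diet, beside 3.29% of all genes higher on the linoleic acid diet, and 5.28% of the 341 higher there, beside 6.84%. The 9 were 0.948% of 949 and 4.15% of 217, beside 2.10% and 9.16%. Neither overlap exceeded the share over all genes. The 18 were Pdk4, Acot2, Klf11, Angptl4, Hilpda, Cpt1a, Acot1, Plin2, Smox, Moap1, Prickle1, Abca1, Bcl2, Pet117, Hist2h3c2, Fam71f2, Gm13152 and the unnamed Entrez gene 110599589. The counting interval of Gm13152 includes 0. Klf11, a Krüppel-like repressor, was at 1.98, 1.63, 6.58 and 5.53 FPKM. Abca1, the cholesterol efflux transporter, was at 3.55, 3.82, 6.22 and 7.25 FPKM. At least 2-fold on both diets, 9 genes were higher and 0 lower. The 9 genes lower by at least 1.5-fold on both diets included Slco1a5, an organic anion transporter, at 10.32, 12.36, 5.40 and 4.73 FPKM. They held no PPARα target of the list, and the counting intervals of Klra4 and Trap1a among them include 0.

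**Figure D3:**
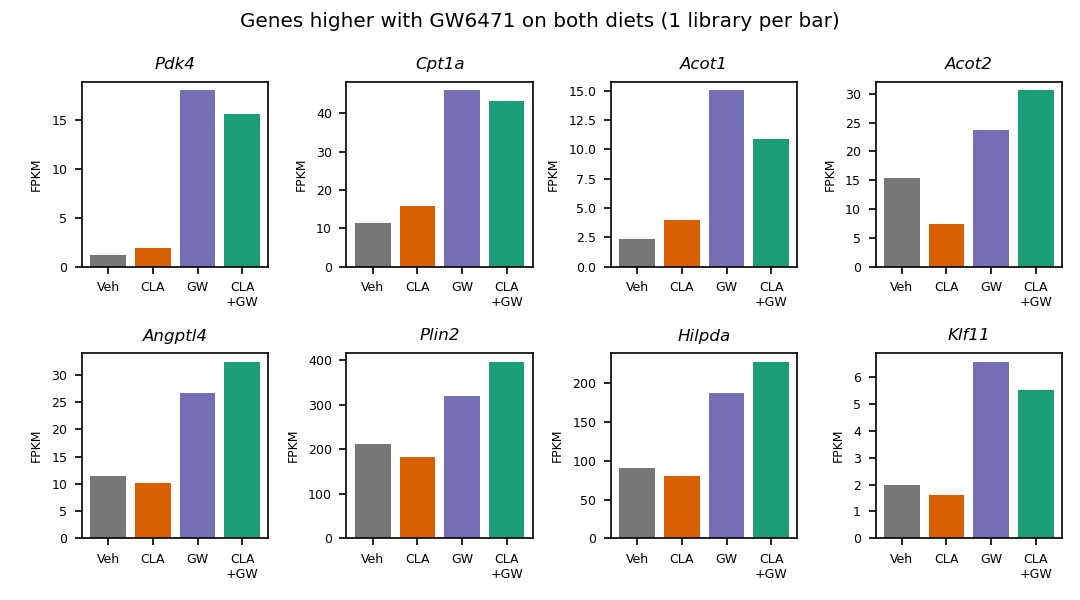
FPKM (vertical axis, from 0) in the Vehicle, CLA, GW6471 (GW) and CLA+GW6471 (CLA+GW) libraries for 8 genes, 1 library per bar and no error bar. In each panel both bars with the antagonist stand above both bars without it, as for Pdk4 at 17.99 and 15.56 against 1.17 and 1.87.

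The PPARα target list as a whole was divided. Of 23 targets above the filter, 6 were higher in CLA+GW6471 than in CLA, namely Pdk4, Acot2, Angptl4, Cpt1a, Acot1 and Plin2. Another 5 were lower and 12 were within 1.5-fold, shares of 26.1% higher and 21.7% lower beside 6.84% and 9.16% of all genes, and the list median was 0.18. The lower members were G0s2, an inhibitor of adipose triglyceride lipase (-1.35), Ech1 and Acaa1a of peroxisomal and mitochondrial oxidation (-1.14 and -0.78), Acsl1, which activates long-chain fatty acids (-1.12), and Decr1, a dienoyl-CoA reductase (-0.64). Acsl1 was at 34.92 FPKM with Vehicle, 74.10 with CLA, 59.83 with GW6471 alone and 34.00 with CLA+GW6471, so that CLA was its highest library. On the linoleic acid diet, 9 of the 23 targets were higher with GW6471 and 0 lower, beside 3.29% and 2.10% of all genes, with a median of 0.39. Pdk4, Cpt1a and Angptl4 were thus higher, not lower, in both libraries labelled with the antagonist. Ppara itself was at 0.15, 0.11, 0.06 and 0.07 FPKM, below the filter in all 4 libraries.

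Among 19 nuclear receptors and cofactors above the filter, 2 were higher (10.5%, near the 6.84% of all genes) and 0 lower. Nr1h4, the bile acid receptor FXR, was at 9.39 FPKM with Vehicle, 5.59 with CLA, 6.44 with GW6471 alone and 10.65 with CLA+GW6471, and the coactivator gene Crebbp was at 6.05, 4.26, 6.52 and 6.97 FPKM. Ppard was at 24.56, 19.76, 22.27 and 27.27 FPKM and Pparg at 8.06, 10.74, 9.28 and 9.68 FPKM, both within 1.5-fold between CLA+GW6471 and CLA.

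RefSeq promoter windows, which span 250 bases before to 50 bases after the gene start on GRCm38.p6, were available for 8414 of the tested genes. The direct repeat bound by PPAR and RXR, 2 AGGTCA hexamers set 1 base apart, was found in 3 of these windows and in none of the genes higher on both diets. A single AGGTCA hexamer, searched on both strands, was in 11.8% of all windows and in 3 of 16 windows of the genes higher on both diets (18.8%). The windows of Cpt1a and Plin2 are shown since these are the best-known lipid genes of that group with a hexamer. Capitals mark AGGTCA or its reverse complement, each sequence reads 5′ to 3′ on the strand of the gene, and a match describes letters only. The Cpt1a window lies at chr19:3323187-3323232 (plus strand) and the Plin2 window at chr4:86670252-86670297 (minus strand).
Cpt1a: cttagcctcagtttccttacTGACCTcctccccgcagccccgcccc
Plin2: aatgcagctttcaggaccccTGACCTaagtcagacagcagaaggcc

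Of 25 genes of cholesterol synthesis and uptake, 21 were lower in CLA+GW6471 than in CLA and 0 higher, against 9.16% lower among all genes, and all 25 ratios were below 0. The list median was -1.06, beside 0.009 over all genes. Dhcr7, the last enzyme of the Kandutsch-Russell branch, was at 9.46 FPKM with Vehicle, 33.11 with CLA, 24.81 with GW6471 alone and 9.74 with CLA+GW6471. CLA and GW6471 were high, Vehicle and CLA+GW6471 low, and the log2 ratio to CLA was -1.75. Acat2, which makes the acetoacetyl-CoA that starts the pathway, was at 3.14, 12.44, 6.88 and 2.22 FPKM, a log2 ratio of -2.43 [-2.82 to -2.17]. Hmgcs1, the next enzyme, was at 26.76, 56.68, 46.88 and 23.00 FPKM.

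Members that stayed within 1.5-fold included Srebf2, the transcription factor of the pathway (-0.28), and Sc5d (-0.43). On the linoleic acid diet GW6471 went the other way, with 14 of the 25 genes higher than in Vehicle, beside 3.29% of all genes, 0 lower and a median of 0.64. The list medians against Vehicle were 0.92 for CLA and -0.07 for CLA+GW6471. These comparisons share the Vehicle library with the GW6471 value and the CLA or CLA+GW6471 library with the main one, and are given as levels only.

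Sterol regulatory element binding proteins often act with NF-Y, which binds CCAAT boxes. In this group CCAAT was found on either strand in 15 of 17 available windows (88.2%), against 39.5% of all 8414 windows. The sterol regulatory element searched, TCACNCCAC, was in 0.986% of all windows and in 1 of 17 here, that of Hmgcs1. Windows are shown for the member with both motifs and for 3 of the lowest members with CCAAT, with CCAAT (or its reverse complement ATTGG) or the sterol element in capitals. They lie at chr13:119690194-119690242 (plus) for the Hmgcs1 sterol element, chr13:119690286-119690330 (plus) for a Hmgcs1 CCAAT box, chrX:72918392-72918436 (plus) for Nsdhl, chr8:122443425-122443469 (minus) for Mvd and chr13:8885541-8885585 (plus) for Idi1.
Hmgcs1 sterol element: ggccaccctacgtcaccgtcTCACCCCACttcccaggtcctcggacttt
Hmgcs1 CCAAT box: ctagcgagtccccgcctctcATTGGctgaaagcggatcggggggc
Nsdhl: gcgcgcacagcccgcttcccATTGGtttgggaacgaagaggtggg
Mvd: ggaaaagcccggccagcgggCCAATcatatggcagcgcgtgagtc
Idi1: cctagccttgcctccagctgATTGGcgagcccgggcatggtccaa

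Of 17 lipogenic genes, 9 were lower in CLA+GW6471 than in CLA (52.9%, beside 9.16% of all genes) and 1 was higher (5.88%, beside 6.84%), with a median of -0.61. Fasn, fatty acid synthase, was at 32.01 FPKM with Vehicle, 52.43 with CLA, 40.69 with GW6471 alone and 27.07 with CLA+GW6471. Acss2, which activates acetate, had a log2 ratio of -1.49, and Fads2, the delta-6 desaturase that acts on linoleic acid, was at 31.46, 83.97, 72.56 and 35.10 FPKM, a ratio of -1.26. The exception was Dgat2, the last enzyme of triglyceride synthesis, at 1.65, 1.35, 1.93 and 3.28 FPKM, a log2 ratio of 1.22.

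Of 18 genes of mitochondrial β-oxidation, 0 were higher and 4 lower (22.2%, beside 9.16% of all genes), with a median of -0.24. Hadh, the short-chain hydroxyacyl-CoA dehydrogenase, was at 30.14, 61.47, 54.71 and 32.33 FPKM. Of 30 peroxisomal genes, 0 were higher and 10 lower (33.3%). Abcd2, a transporter of very long-chain acyl-CoA into peroxisomes, was at 1.53 FPKM with Vehicle, 8.61 with CLA, 4.81 with GW6471 alone and 1.44 with CLA+GW6471, a log2 ratio of -2.50. Among 25 genes of the tricarboxylic acid cycle and pyruvate dehydrogenase, 4 were lower (16.0%) and 0 higher, but Pdk4 was counted with the PPARα targets and not in this list. Pdk1, the pyruvate dehydrogenase kinase induced by hypoxia, had a ratio of -1.59, opposite in sign to its paralog Pdk4.

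Of 19 hypoxia response genes, 10 were lower in CLA+GW6471 than in CLA (52.6%, beside 9.16% of all genes), 9 were within 1.5-fold and 0 were higher, with a median of -0.77. Bnip3, a mitophagy receptor, was at 19.65 FPKM with Vehicle, 79.94 with CLA, 46.56 with GW6471 alone and 18.42 with CLA+GW6471, a log2 ratio of -2.11 [-2.25 to -1.99]. Ankrd37 was at 1.25, 4.69, 3.17 and 0.84 FPKM, a ratio of -2.35 with a wide interval of -3.39 to -1.68. Egln3, a prolyl hydroxylase that marks HIF for destruction, was at 11.18, 27.96, 19.48 and 11.92 FPKM. Vegfa, at 56.57, 60.59, 68.33 and 52.60 FPKM, and Slc2a1, the glucose transporter GLUT1, at 55.19, 64.75, 59.88 and 52.51 FPKM, were within 1.5-fold. On the linoleic acid diet 12 of the 19 were higher with GW6471 and 0 lower, beside 3.29% and 2.10% of all genes, with a median of 0.62.

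Of 18 glycolytic genes, 8 were lower (44.4%, beside 9.16% of all genes), 8 within 1.5-fold and 2 higher (11.1%, beside 6.84%), with a median of -0.56. Aldoc, the brain-type aldolase, had the lowest log2 ratio among named genes with a mean of at least 5 FPKM. It was at 4.98 FPKM with Vehicle, 25.70 with CLA, 13.51 with GW6471 alone and 3.76 with CLA+GW6471, a ratio of -2.74 [-2.99 to -2.56] or 6.68-fold lower, and lies at chr11:78136470-78141283 (plus strand, mm9). Pfkl, the liver phosphofructokinase, was at 20.14, 51.61, 38.80 and 20.33 FPKM. The 2 higher members were Eno2, the neuronal enolase (1.11), and Pfkfb3, which makes the activator of phosphofructokinase (0.77).

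**Figure D4:**
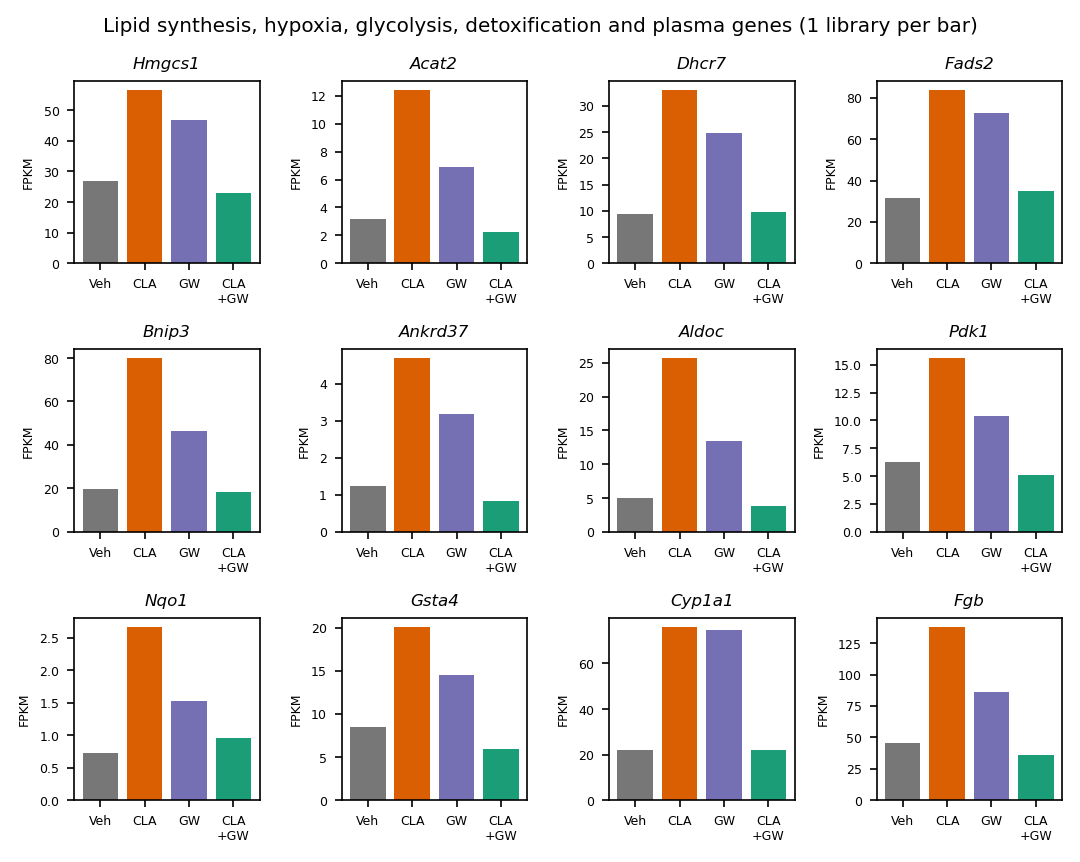
FPKM (vertical axis, from 0) in the Vehicle, CLA, GW6471 (GW) and CLA+GW6471 (CLA+GW) libraries for 12 genes at least 1.5-fold lower in CLA+GW6471 than in CLA, 1 library per bar and no error bar. CLA is the highest bar and CLA+GW6471 lies near Vehicle, as for Bnip3 at 79.94 in CLA against 18.42 and 19.65.

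The core letters of the hypoxia response element, ACGTG on either strand, were in 27.0% of all promoter windows, in 12 of 16 windows of the hypoxia list (75%) and in 9 of 18 of the glycolysis list (50%). The lists overlap, and Pgk1 and Slc2a1 are among the matches of both. ACGTG overlaps the E-box CACGTG. Windows of lower genes are shown with ACGTG in capitals, each on the minus strand except P4ha2. They lie at chr7:138909589-138909633 for Bnip3, chr8:45999851-45999876 for Ankrd37, chr12:54204079-54204123 for Egln3, chr10:59951933-59951977 for Ddit4 and chr11:54100826-54100870 for P4ha2, all on GRCm38.p6. The match in Bnip3 is a whole E-box, and that in Ankrd37 ends 2 bases before the start.
Bnip3: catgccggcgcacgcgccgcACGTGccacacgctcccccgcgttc
Ankrd37: gcacatgtcagtgtttgggtACGTGa
Egln3: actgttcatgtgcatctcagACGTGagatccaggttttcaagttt
Ddit4: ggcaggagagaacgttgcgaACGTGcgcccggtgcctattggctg
P4ha2: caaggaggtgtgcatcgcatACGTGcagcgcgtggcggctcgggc

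Of 25 NRF2 response genes, which act in detoxification, 13 were lower in CLA+GW6471 than in CLA (52.0%, beside 9.16% of all genes), 12 were within 1.5-fold and 0 were higher, with a median of -0.62. Gstm1, a glutathione S-transferase of a family with close copies, was at 43.25 FPKM with Vehicle, 95.89 with CLA, 66.15 with GW6471 alone and 38.80 with CLA+GW6471. Gclc, the rate-limiting subunit of glutathione synthesis, was at 11.85, 22.76, 19.67 and 11.13 FPKM. Ugdh, which makes UDP-glucuronate, was at 142, 282, 224 and 124 FPKM. Hmox1, heme oxygenase, did not follow and was at 69.62, 94.27, 109.64 and 91.40 FPKM. Of 5 genes of the aryl hydrocarbon receptor battery, 3 were lower, again beside 9.16% of all genes. Cyp1a1, its classical reporter, was at 22.08 FPKM with Vehicle, 76.07 with CLA, 74.74 with GW6471 alone and 22.08 with CLA+GW6471, so that either treatment alone was high and the combination equalled Vehicle. Its log2 ratio to CLA was -1.78. The receptor gene Ahr was at 20.92, 36.13, 30.65 and 15.94 FPKM.

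Of the 10 hepatocyte markers above the filter, 4 were lower, beside 9.16% of all genes, and 0 higher. Fgb, fibrinogen beta, was at 45.22, 138.03, 86.43 and 35.68 FPKM (log2 ratio to CLA -1.95), and Alb had a ratio of -1.09. The summed level of the 20 listed markers was 1114 FPKM with Vehicle, 1978 with CLA, 1630 with GW6471 alone and 1053 with CLA+GW6471. Alb made up most of this sum, and 6 of the 10 markers were within 1.5-fold, 4 of them with ratios above 0. Alb, like Dhcr7, Bnip3 and Gstm1, was highest with CLA and second highest with GW6471, and the part of hepatocyte content in those differences was not tested. Spp1, osteopontin, was at 372, 574, 453 and 302 FPKM, while Sox9, another cholangiocyte marker, was highest in CLA+GW6471 at 57.05 FPKM against 34.72 in CLA.

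Of 23 immediate early genes, 10 were higher in CLA+GW6471 than in CLA, 12 were within 1.5-fold and 1 was lower, against 6.84% higher among all genes, with a median of 0.23. Jun, a component of AP-1, was at 17.52 FPKM with Vehicle, 8.02 with CLA, 18.69 with GW6471 alone and 22.27 with CLA+GW6471, a log2 ratio to CLA of 1.46. Myc was at 387, 204, 280 and 409 FPKM, and Atf3, a stress-induced repressor, at 89.81, 42.33, 89.81 and 88.37 FPKM. The lower gene was Klf2 (-1.07). CLA was the lowest library for Jun, Myc and Atf3. Fos, at 5.88, 8.32, 10.49 and 6.41 FPKM, and Egr1, at 147, 158, 213 and 148 FPKM, were within 1.5-fold between CLA+GW6471 and CLA.

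Of 22 NF-kB and cytokine genes, 6 were higher (27.3%, beside 6.84% of all genes) and 3 lower (13.6%, beside 9.16%). Il1rn, the interleukin-1 receptor antagonist, was at 34.25 FPKM with Vehicle, 6.58 with CLA, 10.56 with GW6471 alone and 36.73 with CLA+GW6471, a log2 ratio to CLA of 2.46 [2.30 to 2.66] or 5.51-fold. Il23a was at 30.07, 11.32, 16.15 and 33.09 FPKM and Ccl2, a monocyte chemoattractant, at 35.52, 17.59, 20.91 and 36.46 FPKM. The lower members were Ccl20 (-2.04), Cx3cl1 (-1.59) and Il33 (-1.45). Ccl20 was at 9.57, 30.65, 25.17 and 7.36 FPKM.

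Other genes at the high end were named by their rank. Areg, the EGF receptor ligand amphiregulin, was at 411, 145, 289 and 406 FPKM, a log2 ratio to CLA of 1.49. Odc1, the first enzyme of polyamine synthesis, was at 161, 83.4, 137 and 221 FPKM. Dusp14, a MAP kinase phosphatase, was at 33.90, 14.66, 21.26 and 48.02 FPKM. In the ATF4 response, 4 of 26 genes were higher (15.4%, beside 6.84% of all genes) and 3 lower (11.5%, beside 9.16%). Ppp1r15a, which directs dephosphorylation of eIF2α, was at 141, 60.6, 107 and 151 FPKM, and Nupr1 at 250, 111, 151 and 256 FPKM, whereas the cystine transporter gene Slc7a11 had a ratio of -0.86. Cdkn1a, the cell cycle inhibitor p21, was at 307, 189, 280 and 398 FPKM, while 26 of 30 cell cycle genes stayed within 1.5-fold. The cyclic AMP response element TGACGTCA was in 3.40% of all windows, in 8 of 99 windows of genes at least 2-fold higher (8.08%), including Areg and Ppp1r15a, and in 1 of 209 of genes at least 2-fold lower (0.478%). It was 1 of several motifs searched. The AP-1 site TGANTCA was in 4.78% of all windows, 8.08% of the higher set and 6.7% of the lower set. For the E-box CACGTG these were 10.8%, 14.1% and 9.09%.

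Clock genes were the subject of the study. Of the 7 clock genes on which the study centred, 5 passed the filter, and all 5 were higher in CLA+GW6471 than in CLA, beside 6.84% of all genes. The study reported clock genes as lower with CLA in its own liver RNA-seq, and the CLA library is the denominator of this ratio. How it chose the 7 genes is not stated, and they are not independent evidence of a direction. Cry1, a repressor of CLOCK and BMAL1, was at 10.71 FPKM with Vehicle, 4.63 with CLA, 6.71 with GW6471 alone and 13.05 with CLA+GW6471, a log2 ratio to CLA of 1.48 [1.29 to 1.70]. Clock was at 5.94, 3.54, 5.99 and 6.80 FPKM (0.92) and Arntl at 19.83, 11.59, 17.12 and 21.01 FPKM (0.85). Crem, a cyclic AMP responsive regulator, was at 5.65, 3.46, 5.07 and 6.65 FPKM (0.92), and Per1 at 14.13, 9.91, 14.61 and 15.14 FPKM (0.61). CLA was the lowest library for each of these 5 genes. The study's methods, which describe the CLA and control mice, give a sampling time of ZT8, 8 h after lights on. At a single time point, a shift in phase and a change in level cannot be told apart. With GW6471 on the linoleic acid diet, Cry1 was lower than in Vehicle, by -0.67 on the log2 scale, and the other 4 were within 1.5-fold. Per2, at 0.97, 0.68, 1.10 and 1.11 FPKM, fell just below the filter, and Bhlhe41 was at 0.03 to 0.07 FPKM.

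The wider clock list of 18 genes had 5 higher (27.8%, beside 6.84% of all genes), 3 lower (16.7%, beside 9.16%) and a median of 0.04. Nr1d1 was at 17.97 FPKM with Vehicle, 22.83 with CLA, 22.71 with GW6471 alone and 23.29 with CLA+GW6471. It was thus at one level in the 3 treated libraries, with a log2 ratio of CLA+GW6471 to CLA of 0.03, while Arntl, its target, differed by 0.85. The lower genes included Dbp, an output factor of the clock (0.77, 3.18, 1.87 and 0.82 FPKM, -1.83), and Bhlhe40, a repressor of CLOCK and BMAL1 that also responds to hypoxia (57.05, 103.46, 87.07 and 54.11 FPKM, -0.93). The E-box CACGTG was in 3 of 13 clock windows, against 10.8% of all windows. That of Cry1 is shown because Cry1 had the largest increase among the clock genes, with the E-box in capitals, at chr10:85185089-85185134 (minus strand, GRCm38.p6).
Cry1: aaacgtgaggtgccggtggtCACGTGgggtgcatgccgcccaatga

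**Figure D5:**
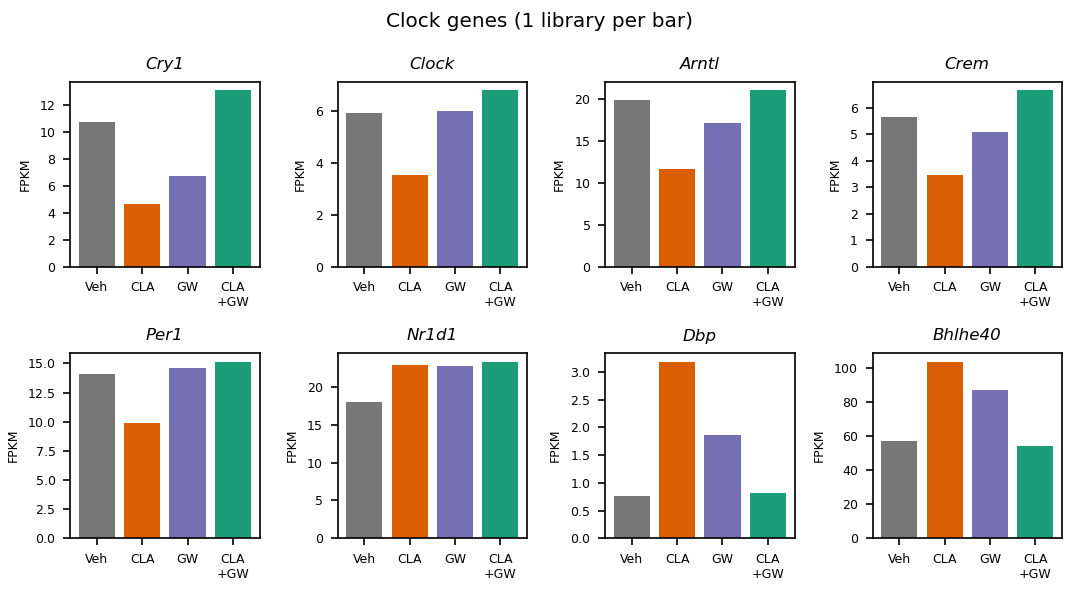
FPKM (vertical axis, from 0) of 8 clock genes in the Vehicle, CLA, GW6471 (GW) and CLA+GW6471 (CLA+GW) libraries, 1 library per bar and no error bar. CLA is the lowest bar for Cry1, Clock, Arntl, Crem and Per1 and the highest for Dbp and Bhlhe40, while Nr1d1 is at 22.71 to 23.29 in GW6471, CLA and CLA+GW6471.

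Further genes at the ends of the range belonged to no group above. At the low end, Akr1c18, which inactivates progesterone, was at 4.75 FPKM with Vehicle, 11.04 with CLA, 6.93 with GW6471 alone and 2.63 with CLA+GW6471. Avpr1a, the hepatic vasopressin receptor, was at 7.04, 18.88, 9.87 and 4.64 FPKM and Olfml3, an extracellular olfactomedin-like protein, at 12.82, 30.30, 16.29 and 8.23 FPKM. Ugt2b35, a glucuronosyltransferase with close copies, was at 7.62, 18.80, 11.81 and 5.12 FPKM. In these 4 genes CLA was the highest library and CLA+GW6471 the lowest.

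Among genes with a mean of at least 100 FPKM, the lowest ratio belonged to Pls3, an actin-bundling plastin, at 77.89, 166.99, 123.40 and 56.87 FPKM. Thbs1, the matrix protein thrombospondin, was at 118, 226, 173 and 91.4 FPKM, and Id2, an inhibitor of helix-loop-helix factors, at 117, 238, 204 and 110 FPKM. At the high end, Slc43a3, a purine transporter, was at 21.15, 7.77, 12.36 and 22.69 FPKM and Zfp703, a transcriptional repressor, at 176, 88.9, 149 and 194 FPKM. For both, CLA was the lowest library and CLA+GW6471 lay just above Vehicle.

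Of 77 cytosolic ribosomal protein genes, 1 was lower (1.30%, beside 9.16% of all genes) and 0 higher (beside 6.84%), with a median of -0.04. Of 77 genes of the respiratory chain and ATP synthase, 5 were lower (6.49%, under the 9.16% of all genes) and 0 higher, with a median of -0.13. Of 21 endoplasmic reticulum chaperones, 5 were lower and 0 higher, against 9.16% lower among all genes. Of 21 interferon response genes, 3 were lower (14.3%) and 1 higher (4.76%), beside 9.16% and 6.84% of all genes. Of 17 extracellular matrix genes, 1 was higher and 1 lower, and of 11 genes of gluconeogenesis and insulin signalling, 1 was higher and 2 lower, counts of single genes beside 6.84% and 9.16% of all genes. Of 11 keratin and barrier genes, 2 were higher (18.2%, beside 6.84% of all genes), Sprr1a (0.72) and Cldn4 (0.85), and 0 were lower. Of 13 amino acid transporter genes, 2 were higher and 2 lower, against 6.84% and 9.16% of all genes. Of 9 genes of the EGF receptor and its ligands, only Areg was higher (11.1%, beside 6.84% of all genes). Markers of other cell types were mostly under the filter, which left 2 of macrophages, 1 of stellate cells, 1 of blood, 2 of adipocytes, 4 of cholangiocytes and 0 of endothelium. Of these, Sox9 and the lipid droplet gene Cidec (1.47) were higher and Spp1 and Fabp4 (-0.78) lower.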

How the data were processed

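RNA from livers of Kunming mice was sequenced, with 1 library for each of Vehicle, CLA, GW6471 and CLA+GW6471, and samples were grouped from their labels. The submitters' processing notes name BWA, Bowtie, Cufflinks and mm9, without versions. The authors deposited 1 table of FPKM per gene with a column for each library, listing 15500 genes, and how these were selected is not stated in the labels or methods. The table carries no unit, and FPKM was taken from a supplementary table of the study that holds the same values. All 4 value columns were used, and 132 of the 15500 genes listed had no symbol or a symbol turned into a date.

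FPKM were used as deposited, on the log2(FPKM + 0.1) scale, for genes with a mean of at least 1. The table holds no counts. Read numbers were estimated from the steps between low values of 499 short genes (under 1000 nt) and transcript lengths of GENCODE vM1 (mm9), and they gave the approximate 95% Clopper-Pearson intervals. The scripts were tested on simulated data. Figures were drawn with matplotlib 3.10.9, and values were computed in Python 3.11.15 with pandas 2.3.3, numpy 2.4.6 and scipy 1.17.1.

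Named genes were the 12 highest and 12 lowest ratios at a mean of at least 5 FPKM, placeholder symbols left out, the 6 highest and 6 lowest at a mean of at least 100 FPKM, the 4 largest ratios of each of 33 lists, and a fixed set of clock and PPARα genes. Other genes named were chosen after their values were seen, and some genes that the rule names are not reported here. The comparison, the lists and this rule were chosen with earlier results of these data known. Some genes, such as Pdk1, Nqo1, Pgk1 and Slc2a1, are in more than 1 list, so that the counts of such lists are not independent. The alternatives were pseudocounts of 0.01 and 1, a mean of at least 5 FPKM or no filter, and other scalings of the libraries. Promoter sequences came from RefSeq (GRCm38.p6), and no coordinate was carried between builds.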

Additional observations from a re-analysis of the deposited data

Results flagged for a closer look

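The groups and genes below differed in opposite directions on the 2 diets, in CLA+GW6471 against CLA and in GW6471 against Vehicle. These comparisons share no library, each rests on 1 library per condition, and the difference between them was not tested. Values are log2 ratios of FPKM + 0.1, the CLA diet first. The median of the cholesterol synthesis and uptake genes was -1.0642 on the CLA diet and 0.6396 on the linoleic acid diet, and that of the hypoxia response genes was -0.7652 and 0.6232.

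Among single genes lower on the CLA diet and higher on the linoleic acid diet, Aldoc had -2.7407 and 1.4218, Acat2 -2.4343 and 1.1072, Bnip3 -2.1116 and 1.2403, and Ccl20 -2.0433 and 1.3858. Cyp1a1 had -1.78 and 1.7546, Dhcr7 -1.7549 and 1.3816, and Fads2 -1.256 and 1.2031. In the other direction, Il1rn had 2.463 and -1.6881. Rnf39, a ring finger gene of the major histocompatibility region, had 1.5071 and -1.1783.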

How the results depend on the processing

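No paired analysis was possible because each condition had 1 library, and the shared replicate number 1 leaves no residual. No replicate could be left out for the same reason. With a pseudocount of 1, 73 genes were at least 2-fold higher in CLA+GW6471 than in CLA and 177 at least 2-fold lower. With a mean of at least 5 FPKM, which tests fewer genes, 597 genes were at least 1.5-fold lower, 71 at least 2-fold higher and 141 at least 2-fold lower, and the median over all genes was 0.0168. With no filter, 1328 and 1697 genes were at least 1.5-fold higher and lower, 361 and 551 at least 2-fold, and the median of the stellate cell markers was -0.2563 in place of -0.39. The remaining 210 of 221 values of counts and list medians stayed within 1.5 times (counts) or within an interval for the median over the list's genes, and 0 past the threshold changed sign. For lists of few tested genes, that interval was the widest span of the members' counting intervals, a looser limit. Of 671 alternative values of the 115 named genes past 1.5-fold, 665 stayed past it in the same direction and 6 fell below it. Counting intervals are wide for genes of few reads, such as Gm13152, Apoc1, Fabp4 and Ankrd37, and the spread between animals is unknown.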

Other observations

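Gene families that were picked after their values were seen are given as descriptions of CLA+GW6471 against CLA. Of all genes tested, 6.84% were higher and 9.16% lower. All 5 apolipoprotein genes above the filter were at least 1.5-fold lower, though the counting interval of Apoc1 includes 0, with Apoe at 1321 FPKM with Vehicle, 2298 with CLA, 1762 with GW6471 alone and 1242 with CLA+GW6471. Of 11 complement and coagulation genes 7 were lower and 0 higher, led by Fgb (log2 ratio -1.95), while F3, tissue factor, had a ratio of 0.54. Of 16 cytochrome P450 genes 10 were lower and 1 higher, and of 18 glutathione S-transferase genes 13 were lower and 1 higher. Members of these enzyme families have close copies, and reads may have been split among them.

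Of 18 dual specificity phosphatase genes 5 were higher and 0 lower. Of 9 histone genes 4 were higher and 1 lower, at low levels for most and with close copies. Of the large protein complexes, 2 of 76 mitochondrial ribosomal protein genes were higher and 1 lower, and 0 of 37 proteasome subunit genes were higher and 4 lower, the interferon-induced Psmb8, Psmb9 and Psmb10 among them. Of 52 heat shock protein and DnaJ genes 0 were higher and 1 lower. Afp, the fetal albumin relative, which adult liver normally lacks, was at 522 FPKM with Vehicle, 937 with CLA, 739 with GW6471 alone and 443 with CLA+GW6471.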
